A study of Mus musculus with 12 samples.

Results

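The 9 genes described here encode enzymes that make heme (Alas1, Alad, Uros, Urod, Cpox, Ppox and Fech) or break it down (Hmox1 and Hmox2). They were chosen by name: every probe set whose annotation carries exactly 1 gene symbol, and that symbol among the 9, was taken, which gave 15 probe sets of the 22626 tested and 9 of the 12393 genes represented. Alas1, Cpox and Ppox each had 2 probe sets, Fech had 4, and the other 5 genes had 1 each. Liver RNA was measured on 12 Affymetrix 430A arrays in 4 groups of 3 arrays, each array carrying the pooled RNA of 3 male mice aged 6 to 8 weeks. The groups were POR-null mice given quercetin, POR-null mice on the control diet, wild-type C57BL/6 mice given quercetin, and wild-type C57BL/6 mice on the control diet. All mice had 14 days on a soya-free powdered diet, the quercetin groups then had quercetin, a plant flavonol, in that diet at 6.2 g per kg (7 mg per mouse), and 24 h later the livers were collected. The POR-null mice are labelled only by that name: the labels used here give neither the allele, nor the cells in which the gene is lost, nor the strain background, so loss of POR and a difference in background cannot be told apart. POR is cytochrome P450 reductase. Its gene, Por, was not analysed here.

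Heme is an iron-containing ring built partly in mitochondria and partly in the cytosol. Its synthesis starts with Alas1, the rate-limiting step in liver, whose own expression heme represses, and ends with Fech, which inserts the iron. In liver a large share of new heme goes to the cytochromes P450, which carry it in their active site and depend on POR for electrons. The heme oxygenases Hmox1 (inducible) and Hmox2 (constitutive) open the heme ring to biliverdin, iron and carbon monoxide, and they too take their electrons from POR. The design therefore allows the level of each gene to be compared between livers labelled POR-null and wild-type livers. It also allows livers with and without a flavonol in the diet to be compared.

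Promoter windows are shown for Alas1 and Uros, both of which had a probe set higher in POR-null livers, and for Urod, the synthesis gene with the largest lower value in POR-null livers on the control diet. The RefSeq promoter table (GRCm38.p6) held windows for 7 of the 9 genes, and the sequences below are the first window of each gene, 300 bases on the minus strand ending just past the annotated start. Alas1 lies at chr9:106247905-106248204, Uros at chr7:133709246-133709545 and Urod at chr4:116994364-116994663. Capitals mark matches, on either strand, to the core bound by nuclear respiratory factor 1 (GCGC, then A and any base N, then GCGC) or to CACGTG, the E-box.
Alas1: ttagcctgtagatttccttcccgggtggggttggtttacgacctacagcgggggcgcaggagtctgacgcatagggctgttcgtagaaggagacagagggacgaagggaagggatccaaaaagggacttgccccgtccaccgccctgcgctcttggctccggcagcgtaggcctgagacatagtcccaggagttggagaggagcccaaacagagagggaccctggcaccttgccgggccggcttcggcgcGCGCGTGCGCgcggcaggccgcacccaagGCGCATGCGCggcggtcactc
Uros: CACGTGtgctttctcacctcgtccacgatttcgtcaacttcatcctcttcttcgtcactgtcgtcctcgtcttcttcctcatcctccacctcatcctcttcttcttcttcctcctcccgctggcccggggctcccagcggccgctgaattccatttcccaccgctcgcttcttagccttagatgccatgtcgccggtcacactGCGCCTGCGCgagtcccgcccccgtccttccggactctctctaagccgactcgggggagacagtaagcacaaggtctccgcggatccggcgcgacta
Urod: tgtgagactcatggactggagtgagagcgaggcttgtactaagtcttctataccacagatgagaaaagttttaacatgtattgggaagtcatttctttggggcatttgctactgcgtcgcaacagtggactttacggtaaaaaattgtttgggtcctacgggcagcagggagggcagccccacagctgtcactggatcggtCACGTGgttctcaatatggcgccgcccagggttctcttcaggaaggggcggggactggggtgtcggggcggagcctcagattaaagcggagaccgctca
The Alas1 window held 2 matches to the nuclear respiratory factor core, both at or past the annotated start. In the second Alas1 window, not shown, the 2 matches lay before its annotated start, at -224 to -215 and -195 to -186. The Uros window held 1 of that core and 1 E-box, and the Urod window 1 E-box. No match to the core was in any window of the other 5 genes with windows. Alad, which gave no called difference, held an E-box in each of its 2 windows. Of all 32851 windows in the table, 4.6% held the core and 7.15% held the E-box. These are letter matches only, and whether either factor binds there was not measured.

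Values are the deposited log2 values, so differences between groups are log2 fold changes. A probe set is called where limma's moderated test, fitted to all 12 arrays, gave a Benjamini-Hochberg adjusted p under 0.05 over all 22626 probe sets. Values of different probe sets are not comparable as levels. Within groups the arrays correlated at r = 0.988 to 0.993. On the second principal component (12.4% of the variance) wild-type control arrays 2 and 3, at -17.7 and -16.2, stood apart from wild-type control array 1, at 12.1. On the first (33% of the variance) POR-null control array 3 lay at 0.1, against 19.3 and 7.9 for the other arrays of its group. Nothing in the labels says how arrays were batched.

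POR-null livers differed from wild-type livers in few of the member probe sets. With both diets averaged, 3 of 15 were called, 2 of them higher (Alas1 1455282_x_at and Uros) and 1 lower (Fech 1418699_s_at). Over all probe sets 7.58% were called in that comparison. On the quercetin diet 1 of 15 was called, Alas1 1455282_x_at, beside 2.33% of all probe sets. On the control diet 0 of 15 were called by limma, with 4 at an unadjusted p under 0.05, beside 1.16% of all probe sets called. The median difference between POR-null and wild-type livers over the member probe sets was 0.03 averaged over diets, against -0.02 over all probe sets, and the members' own differences ran in both directions.

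**Figure D1:**
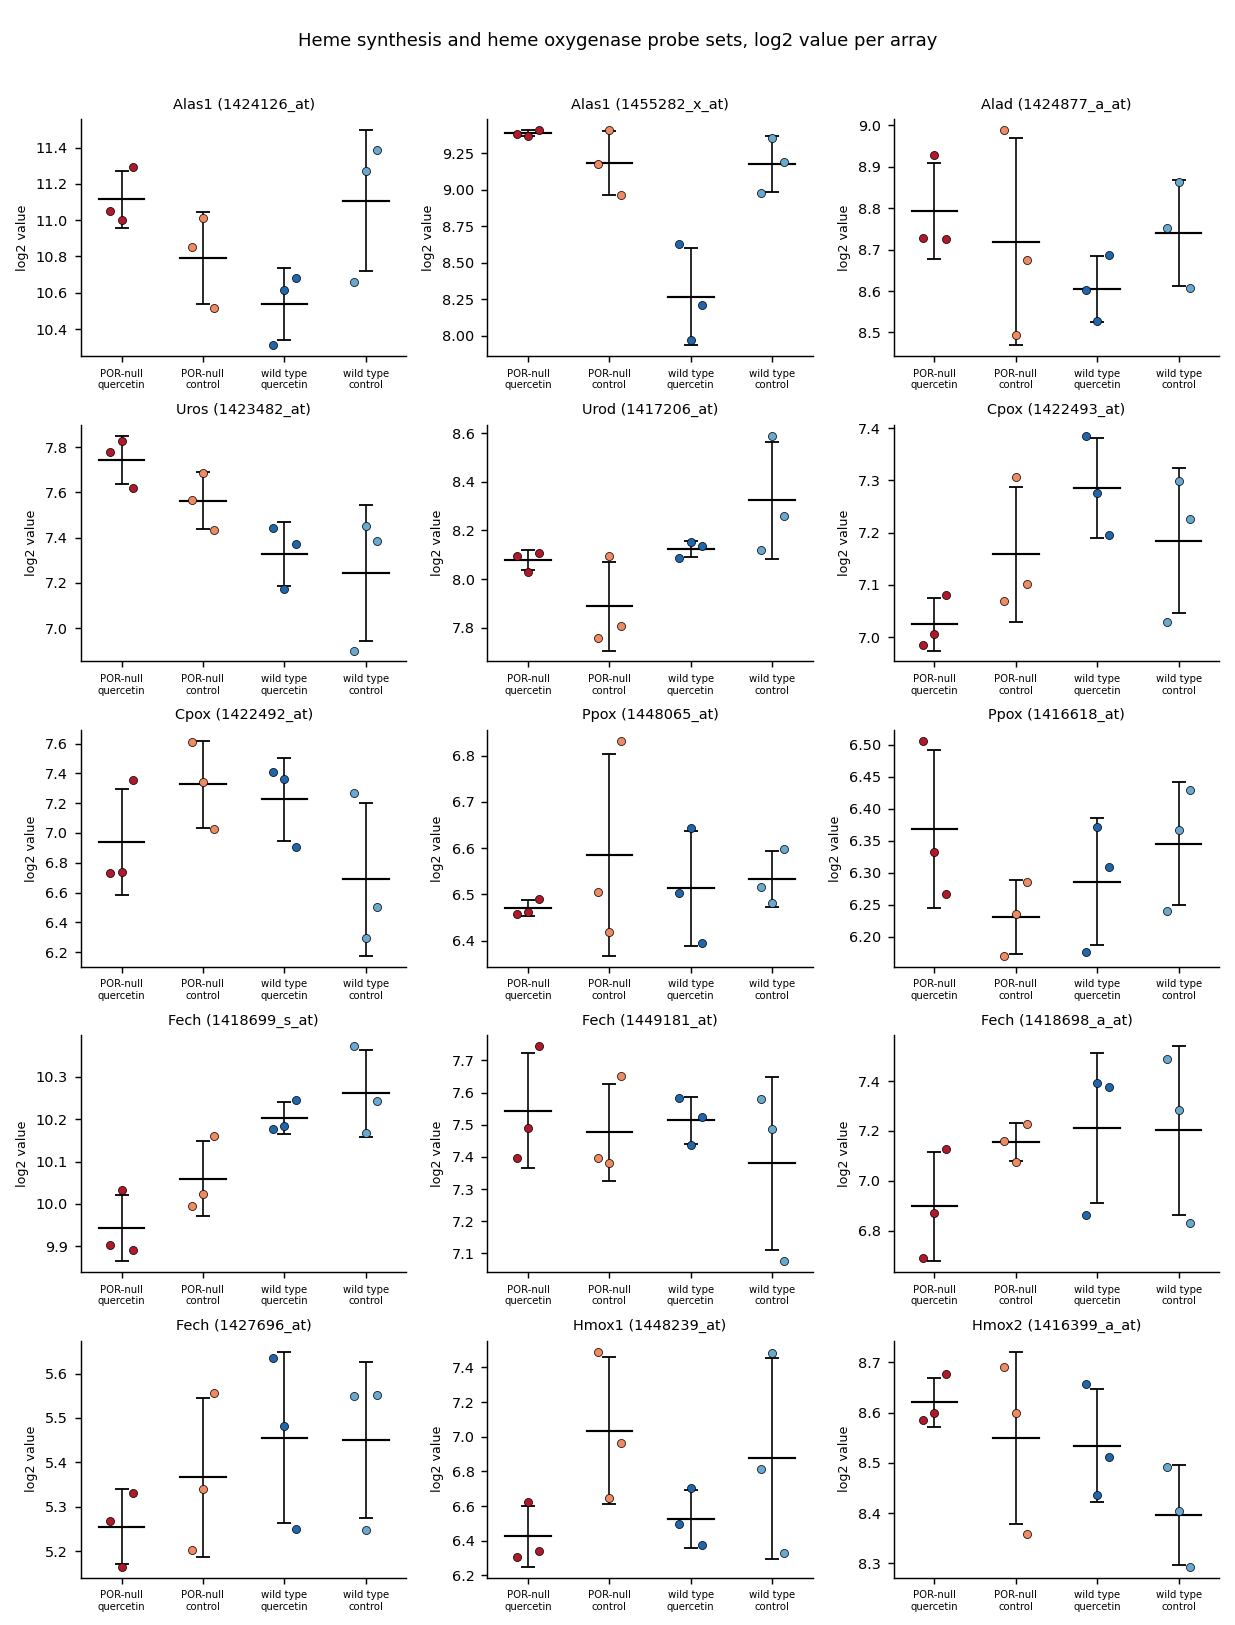
Deposited log2 value of each of the 15 member probe sets on every array, with 1 panel per probe set and its own vertical axis, which does not start at 0. Points are arrays (3 per group), the long bar is the group mean and the whisker 1 SD. The wild-type quercetin group has the lowest mean for both Alas1 probe sets, and the 6 POR-null arrays lie below the 6 wild-type arrays for Fech 1418699_s_at.

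Alas1, aminolevulinate synthase, showed the largest difference among the members, and it was on the quercetin diet. Its probe set 1455282_x_at read 9.38, 9.37 and 9.41 in POR-null livers on quercetin, 9.18, 9.41 and 8.97 in POR-null livers on the control diet, 8.63, 7.97 and 8.21 in wild-type livers on quercetin, and 8.98, 9.36 and 9.19 in wild-type livers on the control diet. The 3 wild-type quercetin arrays were the lowest of all 12, and every POR-null array lay above them. On quercetin the POR-null mean exceeded the wild-type mean by 1.12 ± 0.15 log2 units (moderated SE; 95% confidence interval 0.79 to 1.44; 2.17-fold; limma adjusted p = 0.00258). On the control diet the same difference was 0.01 (95% confidence interval -0.32 to 0.33; adjusted p = 0.989). The diet-averaged difference of 0.56 ± 0.11 (adjusted p = 0.0058) therefore combines a called difference on quercetin with a value near 0 on the control diet. In order of the group means POR-null quercetin (9.39) came first, then POR-null control (9.18) and wild-type control (9.18), then wild-type quercetin (8.27), and the first 3 did not differ beyond their spread. An x_at probe set contains probes that can also match other transcripts.

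The other Alas1 probe set, 1424126_at, also had its lowest group mean in wild-type livers on quercetin. It read 11.05, 11.002 and 11.29 in POR-null livers on quercetin, 10.85, 11.01 and 10.52 in POR-null livers on the control diet, 10.31, 10.62 and 10.68 in wild-type livers on quercetin, and 10.66, 11.27 and 11.39 in wild-type livers on the control diet. On quercetin the POR-null and wild-type arrays did not overlap, but the difference of 0.58 ± 0.17 (95% confidence interval 0.21 to 0.95; adjusted p = 0.0984) was not called. It was called with array weights (adjusted p = 0.0391) and in a fit of the groups compared alone (adjusted p = 0.017). On the control diet the difference was -0.31 (95% confidence interval -0.68 to 0.06; adjusted p = 0.409). With both probe sets of the gene averaged on each array, Alas1 was higher in POR-null than in wild-type livers on quercetin by 0.85 ± 0.14 (adjusted p = 0.00913).

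Uros, uroporphyrinogen III synthase, closes the ring of the heme precursor in the cytosol. Its probe set read 7.78, 7.83 and 7.62 in POR-null livers on quercetin, 7.57, 7.69 and 7.43 in POR-null livers on the control diet, 7.44, 7.17 and 7.37 in wild-type livers on quercetin, and 6.90, 7.45 and 7.38 in wild-type livers on the control diet. On quercetin all POR-null arrays lay above all wild-type arrays, and on the control diet 1 POR-null array lay inside the wild-type range. Averaged over diets Uros was higher in POR-null livers by 0.37 ± 0.10 (95% confidence interval 0.16 to 0.57; 1.29-fold; adjusted p = 0.0314). The difference was 0.32 on the control diet (adjusted p = 0.268) and 0.41 on quercetin (adjusted p = 0.13), neither of them called, although the value on quercetin passed in a fit of the groups compared alone (adjusted p = 0.0467). The averaged call was lost when any of 5 arrays was left out in turn (wild-type quercetin 2, POR-null control 1 or 2, POR-null quercetin 1 or 2), with an adjusted p up to 0.0854.

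Fech, ferrochelatase, inserts iron into protoporphyrin in the mitochondrion and is the last enzyme of the pathway. Its probe set 1418699_s_at read 9.90, 10.03 and 9.89 in POR-null livers on quercetin, 9.996, 10.02 and 10.16 in POR-null livers on the control diet, 10.18, 10.18 and 10.25 in wild-type livers on quercetin, and 10.37, 10.17 and 10.24 in wild-type livers on the control diet. All 6 POR-null arrays lay below all 6 wild-type arrays, a separation that 1.22% of all probe sets showed in this direction. Averaged over diets the value was lower in POR-null livers, by -0.23 ± 0.06 (95% confidence interval -0.36 to -0.10; adjusted p = 0.0294). On each diet taken alone it was not called, at -0.20 on the control diet (adjusted p = 0.259) and -0.26 on quercetin (adjusted p = 0.125). The averaged call was lost when any of 7 arrays was left out in turn (each wild-type quercetin array, POR-null control 1 or 2, POR-null quercetin 1 or 3), with an adjusted p up to 0.0762. The other 3 Fech probe sets were not called, with diet-averaged differences of 0.06 for 1449181_at (95% confidence interval -0.14 to 0.26), -0.18 for 1418698_a_at (-0.44 to 0.08) and -0.14 for 1427696_at (-0.34 to 0.05). Each of these intervals overlaps that of 1418699_s_at, but overlap is not a test of their difference, and whether the probe sets disagree was not tested. The mean of 1427696_at, 5.38, lay under the median of all values, 5.96. With all 4 averaged on each array, the Fech difference was -0.12 ± 0.07 and was not called (adjusted p = 0.287).

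Urod and Cpox, which remove carboxyl groups from successive porphyrin precursors, were not called in any comparison of the fit to all 12 arrays as deposited. Urod read 8.09, 8.03 and 8.11 in POR-null livers on quercetin, 7.76, 8.10 and 7.81 in POR-null livers on the control diet, 8.09, 8.15 and 8.14 in wild-type livers on quercetin, and 8.12, 8.59 and 8.26 in wild-type livers on the control diet. On the control diet the POR-null arrays lay below the wild-type arrays without overlap, and the difference was -0.44 ± 0.12 (95% confidence interval -0.69 to -0.18; adjusted p = 0.0925). Of the 15 member probe sets 2 (Urod and Fech 1418699_s_at) had POR-null arrays wholly below wild-type arrays on the control diet, beside 9.24% of all probe sets. Without wild-type control array 1, the Urod difference passed the test (adjusted p = 0.0285). On the second component that array lay at 12.1, within the range of the wild-type quercetin arrays (8.1 to 16.9). Wild-type control arrays 2 and 3 lay at -17.7 and -16.2. On quercetin the Urod difference was -0.05 (95% confidence interval -0.30 to 0.21). Averaged over diets it was -0.24 (adjusted p = 0.0951), which passed only under quantile normalization (adjusted p = 0.044) and without wild-type control array 1.

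The 2 probe sets of Cpox, coproporphyrinogen oxidase, gave similar POR-null minus wild-type differences on quercetin (-0.26 for 1422493_at and -0.28 for 1422492_at). On the control diet these were -0.03 and 0.64, and none of them was called. Cpox 1422493_at read 6.99, 7.01 and 7.08 in POR-null livers and 7.39, 7.28 and 7.20 in wild-type livers, both on quercetin, a difference of -0.26 with no overlap (95% confidence interval -0.48 to -0.04; adjusted p = 0.203). Cpox 1422492_at varied more among arrays of a group: on the control diet it read 7.61, 7.34 and 7.03 in POR-null livers against 7.27, 6.29 and 6.50 in wild-type livers. Its difference there was 0.64 (95% confidence interval 0.13 to 1.15; adjusted p = 0.205), and it too passed the test without wild-type control array 1 (adjusted p = 0.0305). On quercetin 4 of the 15 member probe sets (both of Alas1, Uros and Alad) lay above wild type without overlap and 2 (Cpox 1422493_at and Fech 1418699_s_at) below, beside 11.9% and 13.0% of all probe sets.

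Alad, aminolevulinate dehydratase, and Ppox, protoporphyrinogen oxidase, gave no called difference. Alad read 8.73, 8.93 and 8.73 in POR-null livers on quercetin, 8.99, 8.49 and 8.68 in POR-null livers on the control diet, 8.60, 8.53 and 8.69 in wild-type livers on quercetin, and 8.75, 8.86 and 8.61 in wild-type livers on the control diet. On quercetin its POR-null arrays lay above its wild-type arrays, by 0.19 on average (95% confidence interval -0.07 to 0.44). The representative Ppox probe set, 1448065_at, lay between 6.46 and 6.49 in POR-null quercetin, 6.42 and 6.83 in POR-null control, 6.395 and 6.64 in wild-type quercetin and 6.48 and 6.60 in wild-type control livers, with overlap in every comparison. Over the 6 comparisons of genotype or diet the 95% confidence intervals for Alad lay between -0.39 and 0.44 log2 units and those for the 2 Ppox probe sets between -0.35 and 0.35. The lowest adjusted p was 0.455 for Alad and 0.622 for Ppox.

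**Figure D2:**
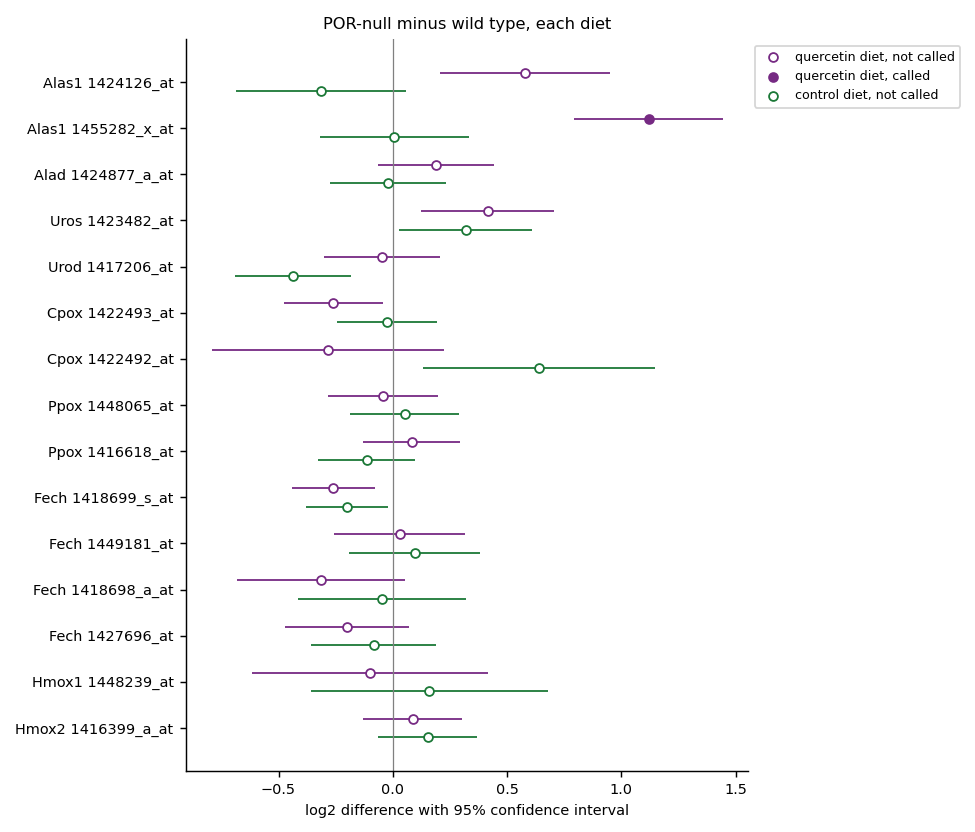
Log2 difference of POR-null minus wild-type livers for each member probe set, on the quercetin diet (purple, upper of each pair) and the control diet (green, lower). Lines are 95% confidence intervals from limma, and filled circles are called at an adjusted p under 0.05. Alas1 1455282_x_at on quercetin is the filled circle, at 1.12.

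Hmox1, the inducible heme oxygenase, did not differ detectably between genotypes, and its values were lower on quercetin without passing the test. It read 6.31, 6.63 and 6.34 in POR-null livers on quercetin, 7.49, 6.65 and 6.97 in POR-null livers on the control diet, 6.50, 6.70 and 6.38 in wild-type livers on quercetin, and 6.82, 7.48 and 6.33 in wild-type livers on the control diet. The control-diet arrays of both genotypes were widely spread, with an SD of 0.43 in POR-null and 0.58 in wild-type livers. In POR-null livers all 3 quercetin arrays lay below all 3 control arrays, as they did for 7.52% of all probe sets. The quercetin difference there was -0.61 ± 0.24 (95% confidence interval -1.13 to -0.09; adjusted p = 0.667), and averaged over genotypes it was -0.48 ± 0.17 (adjusted p = 0.424). Between genotypes Hmox1 differed by 0.16 on the control diet (95% confidence interval -0.36 to 0.68) and by -0.10 on quercetin (-0.62 to 0.42).

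Hmox2, the constitutive heme oxygenase, varied less. It read 8.59, 8.60 and 8.68 in POR-null livers on quercetin, 8.69, 8.60 and 8.36 in POR-null livers on the control diet, 8.66, 8.44 and 8.51 in wild-type livers on quercetin, and 8.49, 8.41 and 8.29 in wild-type livers on the control diet. The groups overlapped in each of the 6 comparisons, and over the 6 comparisons the intervals lay between -0.14 and 0.37, with no adjusted p below 0.338.

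Quercetin changed no member probe set by limma's test in wild-type livers, in POR-null livers or averaged over genotypes. At an unadjusted p under 0.05 there were 3, 1 and 2 member probe sets in those comparisons. No probe set of the whole array was called in them either (0% of 22626 in each), with 1942, 1581 and 2079 probe sets at an unadjusted p under 0.05. The lowest adjusted p of any probe set was 0.0783 in wild-type livers and 0.446 in POR-null livers.

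Among the members the largest quercetin difference was that of Alas1 1455282_x_at in wild-type livers. For 1455282_x_at the wild-type quercetin arrays (7.97 to 8.63) lay wholly below the wild-type control arrays (8.98 to 9.36), as did those of 6.09% of all probe sets, and the difference was -0.91 ± 0.15 (95% confidence interval -1.23 to -0.58; adjusted p = 0.165). For 1424126_at it was -0.57 ± 0.17 (95% confidence interval -0.94 to -0.20; adjusted p = 0.415), with overlap. Without wild-type control array 1 both passed, with an adjusted p of 0.0247 for 1455282_x_at and 0.039 for 1424126_at, and without wild-type quercetin array 1 1455282_x_at passed at 0.0486. In POR-null livers the quercetin differences of Alas1 were 0.20 (95% confidence interval -0.12 to 0.53) for 1455282_x_at and 0.32 (-0.05 to 0.69) for 1424126_at.

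Whether the response to quercetin differed between genotypes was tested as an interaction, which called 0 of 15 member probe sets and 0% of all probe sets, with 4 members and 1397 probe sets at an unadjusted p under 0.05. The POR-null minus wild-type difference in response was 1.11 ± 0.22 for Alas1 1455282_x_at (95% confidence interval 0.65 to 1.57; adjusted p = 0.601) and 0.89 ± 0.25 for Alas1 1424126_at (0.37 to 1.42; adjusted p = 0.798). A called difference on quercetin and none on the control diet is therefore not shown to be a difference between diets by this test.

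**Figure D3:**
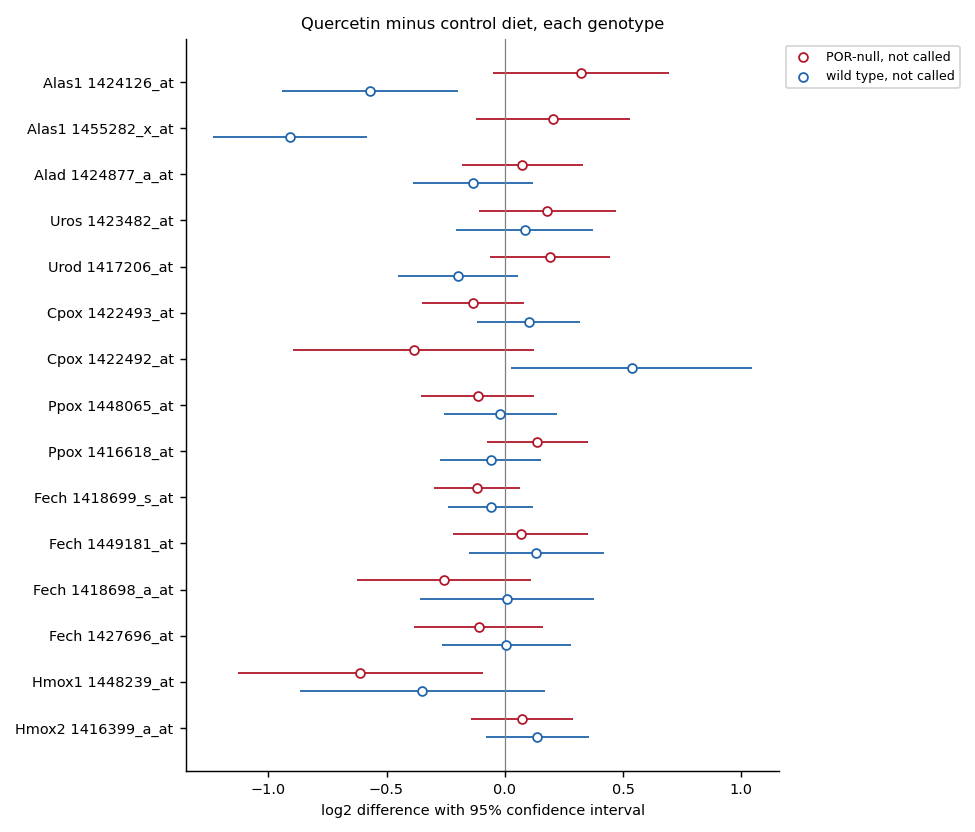
Log2 difference of quercetin minus control diet for each member probe set, in POR-null livers (red, upper of each pair) and wild-type livers (blue, lower). Lines are 95% confidence intervals from limma, and open circles are not called. Both Alas1 probe sets lie left of 0 in wild-type and right of 0 in POR-null livers, and Hmox1 lies left of 0 in both.

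The genes whose pattern over the 12 arrays was closest to that of Alas1 1424126_at, by the root-mean-square difference after each gene was centred on its own mean, were Kmt5a (0.15), Grwd1 (0.17) and Rmdn3 (0.17), out of 7393 genes compared. Alas1 itself varied by a root mean square of 0.32. For Hmox1, with 0.40, the closest were Akr1c14 (0.23), Wdr6 (0.24) and Tob1 (0.25). The leftover difference was thus a large part of each gene's own variation.

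Genes known to regulate Alas1 were mostly not called. Of 15 measured, 2 were called lower in POR-null livers averaged over diets and 0 were called higher. Over all 22626 probe sets, 610 were called lower and 1104 higher in that comparison, together 7.58%. Nr0b2 (SHP, a repressor of bile acid and other nuclear receptor targets) was lower by -1.11 ± 0.15 (adjusted p = 0.000666), and Hnf4a, a hepatocyte transcription factor, was lower by -0.31 ± 0.07 (adjusted p = 0.0167). The Nr0b2 arrays of the genotypes did not overlap, as was so for 1.22% of all probe sets in this direction. Its difference was -1.36 on quercetin (adjusted p = 0.00544) and -0.87, not called, on the control diet (adjusted p = 0.0606). The nuclear respiratory factor gene Nrf1, the coactivator genes Ppargc1a and Ppargc1b and the drug-sensing receptors Nr1i2 (PXR) and Nr1i3 (CAR) were among the 13 not called.

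Genes of heme breakdown and of the Nrf2 stress response, of which Hmox1 is a member, were also compared. Averaged over diets 3 of 16 were called lower and 0 higher in POR-null livers, beside 7.58% of all probe sets called. Gclc, the catalytic subunit that limits glutathione synthesis, was lower by -0.88 ± 0.12 averaged over diets (adjusted p = 0.00106) and was called on each diet, although leaving out single arrays ended the call in 3 of 6 fits on the control diet and in 4 of 6 on quercetin. Mafg, a small Maf partner of Nrf2 and of the heme-sensing repressor Bach1, was lower by -0.52 ± 0.08 (adjusted p = 0.00205), and was called on the control diet alone (-0.61; adjusted p = 0.028), though not on quercetin (-0.44; adjusted p = 0.07). Maff, another small Maf protein, was lower on the control diet (-0.69; adjusted p = 0.0157) and differed by 0.03 on quercetin (adjusted p = 0.914). Its called average of -0.33 (adjusted p = 0.0264) combines those values and was lost when any of 7 arrays was left out. On the control diet 4 of 6 fits that leave out an array kept the Maff call and 2 of 6 the Mafg call. Bach1 itself was not called (-0.29; adjusted p = 0.162), nor were the biliverdin reductases Blvra and Blvrb.

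Of 15 genes of iron and iron-sulfur supply, 4 were called higher in POR-null livers averaged over diets and 0 were called lower. The share of all probe sets called in that comparison was 7.58%. Nfs1, the cysteine desulfurase of iron-sulfur cluster assembly, was higher by 0.35 ± 0.06 (adjusted p = 0.00325), Fth1, the ferritin heavy chain, by 0.30 ± 0.05 (adjusted p = 0.00345), and Isca2, a cluster carrier, by 0.30 ± 0.07 (adjusted p = 0.0167). For Nfs1 and Fth1 all 6 POR-null arrays lay above all 6 wild-type arrays, as they did for 434 of all 22626 probe sets. Aco1, an iron regulatory protein when it lacks its cluster, was higher by 0.76 on the control diet (adjusted p = 0.0487) and by 0.15, not called, on quercetin (adjusted p = 0.719). Its average was 0.45 ± 0.12 (adjusted p = 0.0357), a call kept in 4 of the 12 fits that leave out an array and lost under quantile normalization, and 2 of 6 such fits kept the control-diet call.

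None of 15 further heme synthesis, transport and handling genes, and none of 5 heme and hemoglobin scavenging genes, was called by limma in any comparison. Among the scavengers Hpx (hemopexin) differed between POR-null and wild-type livers by 0.18 averaged over diets (adjusted p = 0.226) and Hp (haptoglobin) by 0.13 (adjusted p = 0.465). Clpx, a mitochondrial protease subunit that acts on Alas proteins, read 1.28 log2 units higher on quercetin than on the control diet in wild-type livers (adjusted p = 0.361) and 0.23 in POR-null livers (adjusted p = 0.904). Hebp1, a heme-binding protein, read 0.49 higher on quercetin averaged over genotypes (adjusted p = 0.151).

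Heme-using proteins other than cytochromes P450 had 2 of 15 called higher and 1 lower in POR-null livers averaged over diets. In that comparison 7.58% of all probe sets were called. Suox, sulfite oxidase, was higher by 0.49 ± 0.09 (adjusted p = 0.00511), Ido2, a tryptophan-degrading heme enzyme, by 0.30 ± 0.08 (adjusted p = 0.0274), and Tdo2, tryptophan dioxygenase, was lower by -0.26 ± 0.07 (adjusted p = 0.0313). Leaving out single arrays ended the Ido2 call in 5 of 12 fits and the Tdo2 call in 6, and the replicate number as a block ended the Tdo2 call (adjusted p = 0.0517). The cytochromes P450, the main users of hepatic heme, had 13 of 40 called higher and 2 lower averaged over diets, beside the same 7.58%. Their median difference was 0.13. Cyp2b10, a drug-inducible P450, was higher by 4.36 ± 0.28 (20.5-fold), and Cyp7a1 and Cyp8b1, bile acid synthesis enzymes, by 2.27 ± 0.19 and 1.12 ± 0.13, while Cyp2d26 was lower by -0.46 ± 0.07. No gene of these lists was called for quercetin or for the interaction.

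**Figure D4:**
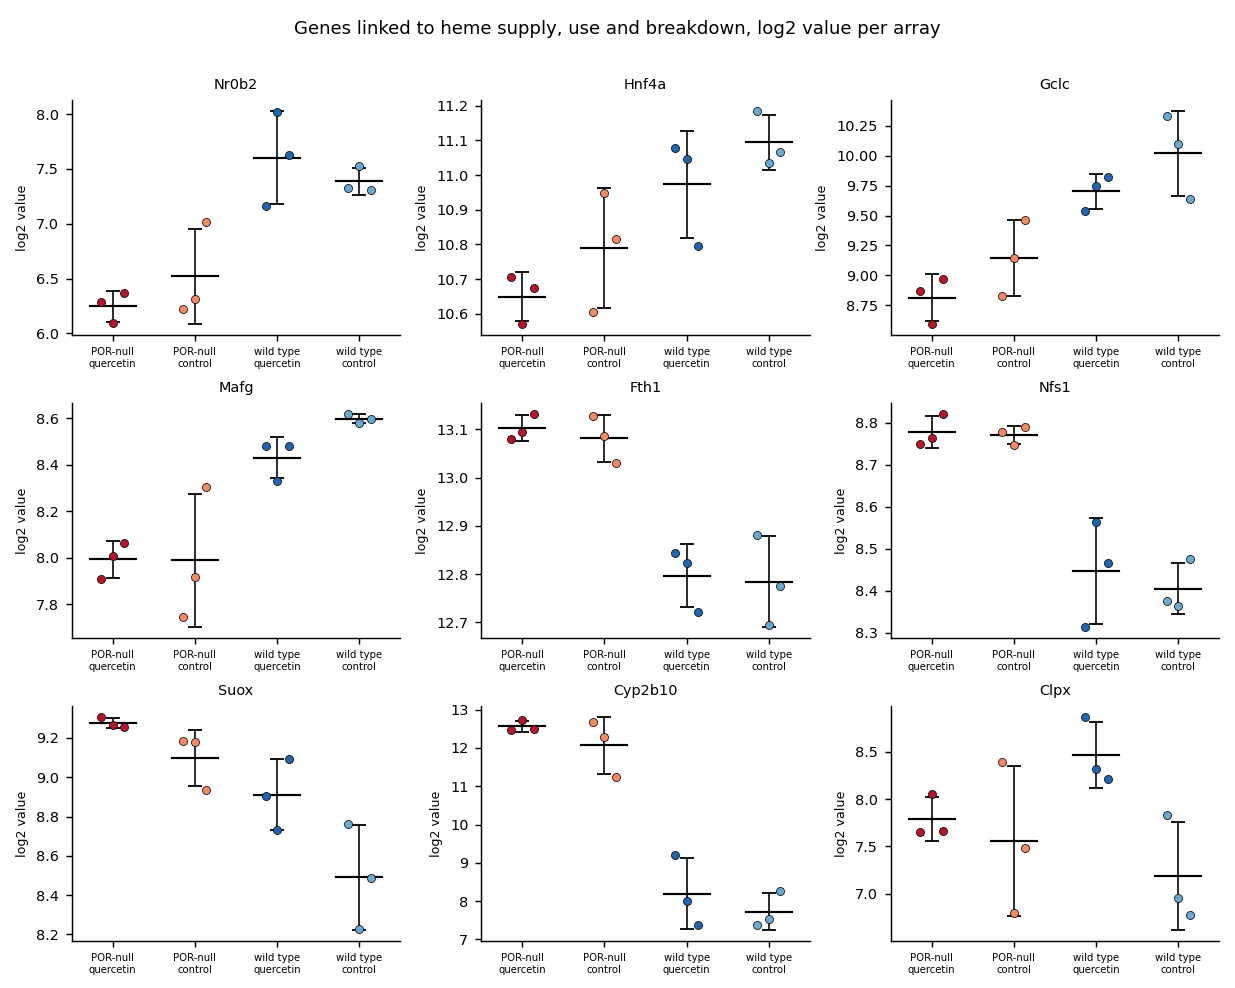
Deposited log2 value per array of 9 genes linked to heme supply, use and breakdown, with 1 panel per gene and its own vertical axis, which does not start at 0. Points are arrays, long bars are group means and whiskers 1 SD. Nr0b2, Gclc and Mafg lie lower in the 6 POR-null arrays than in the 6 wild-type arrays without overlap, as do 276 of 22626 probe sets. Fth1, Nfs1 and Cyp2b10 lie higher without overlap, as do 434 of 22626. Clpx is shown for its wild-type quercetin arrays and was not called.

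Some features of the arrays moved with genotype. Of 13 Kupffer cell markers 4 were called higher in POR-null livers averaged over diets (Mpeg1, Lyz2, Cd5l and C1qa) and 0 lower, beside 7.58% of all probe sets called. The summed level of the 13 markers on the linear scale was 3507 to 4236 in POR-null quercetin, 3185 to 4146 in POR-null control, 2412 to 4232 in wild-type quercetin and 2075 to 3104 in wild-type control livers. The markers Marco, Cd163 and Cd68 had a mean under the median of all values. Of the 4 diet-averaged calls only that of Mpeg1 was kept whichever array was left out. Averaged over diets 10 of the 13 markers lay above 0. Adgre1 (-0.05) and Cd163 (-0.31), neither called, were among those below. The difference between the 3′ and 5′ probe sets of the 18S ribosomal RNA control was 1.52 to 1.75 in POR-null quercetin, 1.61 to 1.77 in POR-null control, 1.03 to 1.27 in wild-type quercetin and 1.09 to 1.55 in wild-type control livers, while that of the actin control overlapped between genotypes on each diet. The other 3 controls overlapped on 1 diet and not on the other. On the control diet the transferrin receptor control was 1.17 to 1.34 in POR-null and 0.99 to 1.13 in wild-type livers, and Gapdh -0.155 to -0.141 in POR-null and -0.213 to -0.17 in wild-type livers. On quercetin the pyruvate carboxylase control was 1.90 to 2.14 in POR-null and 2.17 to 2.57 in wild-type livers. The part of either in the member differences was not tested. In whole liver, a change in the number of cells of a type and a change in RNA per cell cannot be told apart.

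Red cell and pancreas RNA were also looked at, because erythroid cells make heme. None of 5 erythroid markers was called, and Hba-a1, Slc4a1 and Epb42 had means under the median of all values, while Alas2, the erythroid counterpart of Alas1, lay between 8.38 and 8.99. Summed erythroid levels were 544 to 709, 596 to 628, 541 to 731 and 560 to 685 in POR-null quercetin, POR-null control, wild-type quercetin and wild-type control livers. Alas2, with a mean of 8.71 against 6.70 for the next marker, Car1, weighs most in these sums. All 8 pancreas markers read higher in POR-null than in wild-type livers on quercetin, the comparison in which Alas1 was called, with a median difference of 1.02 and 0 called. Their sums were 1111 to 7639 in POR-null quercetin, 894 to 2716 in POR-null control, 746 to 2549 in wild-type quercetin and 1032 to 3373 in wild-type control livers, the highest on POR-null quercetin array 3. Without that array the Alas1 1455282_x_at difference on quercetin was 1.11 ± 0.18 (adjusted p = 0.0102), and the part of pancreas RNA on the other arrays was not tested. The 7 hepatocyte markers were all above the median of all values and 0 were called in any comparison. Their sums were 55918 to 60479 in POR-null quercetin and 65347 to 65717 in wild-type quercetin livers, without overlap. On the control diet they were 58239 to 63026 in POR-null and 58754 to 63219 in wild-type livers. On quercetin 1 of the 7 read higher in POR-null than in wild-type livers, with a median difference of -0.23. The part of this in the member differences was not tested.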

How the data were processed

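Total RNA of 12 pools of 3 livers was hybridized to Affymetrix 430A arrays, and groups and replicate numbers were read from the sample titles. The deposited values are log2 values of 2.572 to 14.168, and MAS5 and RMA appear, with no role, in the submitters' processing notes. The background correction behind the log2 values is not given in the sources used here, and nothing further was normalized. Array medians lay between 5.93 and 5.99. Of 22690 probe sets, 64 controls were left out and 20380 carried 1 symbol in GEO's platform annotation, of which 20351 matched RefSeq by gene ID.

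Differences were tested, two-sided, with limma 3.58.1 in R 4.3.3: 1 mean per group over 12 arrays, moderated variances with an intensity trend, Benjamini-Hochberg adjustment over 22626 probe sets. The procedure was tested on simulated data. Where a list gene had several probe sets, the one with the highest mean stood for it. The members and lists were chosen with earlier results of these data known. Named genes were all members and genes picked from each list. Those picked were its called genes or, where none passed, the 3 with the lowest p in a diet-averaged or genotype-averaged comparison. Not every picked gene is named, for example among the cytochromes P450 and the scavengers. Which picked genes to name, and any genes named beyond them, were chosen after their values were seen. Since each array pools mice and nothing says how pools were formed, p-values measure the spread between pools, and the number of arrays limits precision: where 1 group is set against 1 other, the 95% confidence interval reached 0.18 to 0.518 to either side over the member probe sets. The replicate numbers are not known to mark shared litters or days. Alternatives were a filter on low values, quantile normalization, other variance priors, array weights, the replicate number as a block, fits of the groups compared alone, probe sets of a gene averaged, and leaving out each array.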

Additional observations from a re-analysis of the deposited data

How the results depend on the processing

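The count of called members in POR-null against wild-type livers on the control diet was 0 to 2 when single arrays were left out (2 without wild-type control array 1, Urod and Cpox 1422492_at). On quercetin it stayed at 1 when single arrays were left out, and was 2 with array weights and 3 in a fit of the groups compared alone. Averaged over diets it was 1 to 4, with 1 without wild-type quercetin array 2, POR-null control array 1 or 2, or POR-null quercetin array 1. For quercetin in wild-type livers it was 0 to 2, with 2 without wild-type control array 1 and 1 without wild-type quercetin array 1. Over all probe sets, calls on the control diet were 262, against 30 in the fit of the groups compared alone and 35 to 756 with single arrays left out; on quercetin they were 527, against 1052 with array weights, 950 for the groups alone and 127 to 389; averaged over diets they were 1714, against 991 to 2128. Quercetin in wild-type livers had 0, and 151 without wild-type control array 1. The cause was not tested.

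Same-numbered arrays of different groups had deviations correlated at -0.184 to 0.235, and differently numbered arrays at -0.219 to 0.223. Of the 12 arrays, 6 correlated best with an array of their own number. These overlapping ranges cannot decide whether a number marks a shared day, litter or batch. With the replicate block the member counts stayed at 0, 1 and 3 for the genotype comparisons and at 0 for the others. Among the genes of the other lists, the block ended the diet-averaged calls of Tdo2 and C1qa, the control-diet calls of Aco1, Cyp3a11 and Mpeg1, and the quercetin-diet calls of Fth1 and Cyp2c54.

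Of the 1583 alternative values of the 105 member differences, 66 turned sign, in 32 differences, none of which was called under the main or the turned setting. Quantile normalization turned Alas1 1455282_x_at on the control diet (-0.042), and Fech 1449181_at (-0.012) and Hmox2 (-0.0042) on quercetin, all POR-null minus wild type. Array weights turned Ppox 1448065_at (-0.025) and Hmox1 (-0.042) averaged over diets, and Ppox 1448065_at for quercetin in wild-type livers (0.0041). Leaving out single arrays turned 31 differences, so no direction is given to them. For POR-null minus wild type on the control diet the ranges were Alas1 1455282_x_at -0.11 to 0.12, Alad 1424877_a_at -0.16 to 0.091, Cpox 1422493_at -0.10 to 0.031, Ppox 1448065_at -0.071 to 0.14, Fech 1449181_at -0.057 to 0.20, Fech 1418698_a_at -0.23 to 0.097 and Hmox1 1448239_at -0.11 to 0.46. For POR-null minus wild type on quercetin the ranges were Ppox 1448065_at -0.10 to 0.022 and Fech 1449181_at -0.07 to 0.10. For POR-null minus wild type averaged over diets the ranges were Ppox 1448065_at -0.057 to 0.047, Ppox 1416618_at -0.051 to 0.009, Fech 1449181_at -0.014 to 0.11 and Hmox1 1448239_at -0.11 to 0.18. For quercetin minus control in wild-type livers the ranges were Uros 1423482_at -0.088 to 0.19, Ppox 1448065_at -0.083 to 0.041, Fech 1449181_at -0.019 to 0.23, Fech 1418698_a_at -0.18 to 0.18 and Fech 1427696_at -0.095 to 0.11. For quercetin minus control in POR-null livers the ranges were Alad 1424877_a_at -0.038 to 0.21, Ppox 1448065_at -0.20 to 0.0092, Fech 1449181_at -0.033 to 0.15 and Hmox2 1416399_a_at -0.024 to 0.14. For quercetin minus control averaged over genotypes the ranges were Alad 1424877_a_at -0.086 to 0.037, Urod 1417206_at -0.055 to 0.062, Cpox 1422493_at -0.056 to 0.0202 and Cpox 1422492_at -0.027 to 0.22. For the interaction the ranges were Uros 1423482_at -0.0065 to 0.27, Ppox 1448065_at -0.18 to 0.028, Fech 1449181_at -0.17 to 0.087, Hmox1 1448239_at -0.56 to 0.012 and Hmox2 1416399_a_at -0.16 to 0.0042.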
